A study of Mus musculus with 8 samples.

Results

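A set of 10 genes whose RNA marks fields of the mouse hippocampus were followed in whole-brain RNA of mice labelled TNF-/- and TNF+/+. They are Prox1, C1ql2, Dsp, Lct and Tdo2 for the dentate gyrus, Wfs1 and Fibcd1 for field CA1, and Itpka, Bok and Cabp7, which were added because their signals differed between the groups on these same arrays. All 10 were measured, each by 1 probe set that pairs with its symbol alone, among 19938 genes with a symbol. For Itpka, Bok and Cabp7 the difference between groups is what chose them, so it is given as a description without a test. The other 7 were not stated to be chosen by their values. The study asked what the absence of tumour necrosis factor, a cytokine, does to gene expression in the adult brain, along with neurogenesis, cell composition and cognition.

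The comparison set 4 brains labelled TNF-/-, for which the labels give no strain, targeted allele or deleted part, against 4 brains labelled TNF+/+ on the C57BL/6 background. No treatment is listed, and all were males aged 2 to 4 months, and frozen brain was lysed for RNA without separating regions. RNA of each brain went on a separate array of the Affymetrix Mouse Gene 1.0 ST type, a 1-colour array with probes spread along each transcript, and the number of arrays limits the precision of every comparison. Signals are the submitters' log2 values, on which a difference of 1 is a doubling.

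The hippocampus is a small part of the brain in which signals pass from the granule cells of the dentate gyrus through their mossy fibres to the pyramidal cells of CA3, and from there to CA1, with CA2 in between. Granule cells keep their identity through the transcription factor Prox1, and the dentate gyrus is one of the few places where neurons are added in adulthood. Each field has RNAs that in situ maps show enriched there, but several, such as Wfs1 and Itpka, are also made in cerebral cortex and other forebrain regions. In a lysate of whole brain, fewer cells of a field and less RNA per cell cannot be told apart, and neither can a change in the hippocampus be told from one elsewhere.

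The targeted gene, Tnf, did not follow the labels. It was at 5.67, 5.87, 5.92 and 6.21 in the arrays labelled TNF-/-, against 4.48, 4.93, 4.24 and 4.47 in those labelled TNF+/+, and differed by 1.39 ± 0.16 (SE; limma, adjusted p = 0.0278). A probe set outside the deleted part would check nothing, and the sources used here do not place these probes. Every direction below is therefore that of the labels. Array medians lay between 5.03 and 5.11. TNF+/+ arrays 3 and 4 stood apart on the first principal component, with scores of 22.05 and 37.22 against -4.29 or lower in the others. TNF+/+ array 1 carried a cerebellar signal: Gabra6, a receptor subunit of cerebellar granule cells, was at 8.21 there and at 4.01 to 4.42 in the other 7 arrays, and Cbln3, made by the same cells, was at 7.07 against 3.93 to 4.41. The mean of the 15 cerebellar genes was 7.01 in that array and 5.83 to 5.88 in the others.

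The start regions of the 3 genes whose groups did not overlap are shown because the 3 did not differ in one direction between the labelled groups. Each line gives 250 bases before to 50 bases after the RefSeq start in GRCm38.p6, 5′ to 3′ on the strand of the gene, with GC boxes (GGGCGG on either strand) in capitals. Itpka lies at chr2:119742087-119742386 on the plus strand, Bok at chr1:93685325-93685624 on the plus strand and Cabp7 at chr11:4747130-4747429 on the minus strand.
Itpka: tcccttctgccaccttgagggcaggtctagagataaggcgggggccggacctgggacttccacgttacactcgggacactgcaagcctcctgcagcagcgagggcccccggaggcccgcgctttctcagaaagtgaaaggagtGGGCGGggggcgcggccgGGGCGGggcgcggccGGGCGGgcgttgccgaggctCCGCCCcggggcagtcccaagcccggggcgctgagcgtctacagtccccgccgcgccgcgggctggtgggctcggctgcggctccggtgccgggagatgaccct
Bok: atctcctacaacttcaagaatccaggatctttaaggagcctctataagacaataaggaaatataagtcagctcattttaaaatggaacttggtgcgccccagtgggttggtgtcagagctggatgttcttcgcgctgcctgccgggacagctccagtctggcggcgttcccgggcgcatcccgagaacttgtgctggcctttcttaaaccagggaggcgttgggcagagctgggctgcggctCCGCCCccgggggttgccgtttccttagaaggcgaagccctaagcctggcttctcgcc
Cabp7: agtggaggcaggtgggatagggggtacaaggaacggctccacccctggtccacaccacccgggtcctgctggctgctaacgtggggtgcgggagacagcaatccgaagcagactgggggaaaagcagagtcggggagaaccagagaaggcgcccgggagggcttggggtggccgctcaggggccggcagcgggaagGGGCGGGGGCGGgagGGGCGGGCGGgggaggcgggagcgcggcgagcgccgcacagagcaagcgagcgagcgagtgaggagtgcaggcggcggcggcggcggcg
The Itpka and Cabp7 windows had 73.7% and 73% G and C, with 33 and 30 CpG dinucleotides. The Bok window had 56.3% G and C and 16 CpG. The directions come from how the 3 were chosen, and whether base composition goes with them was not tested. The median of 32851 start regions of the same length was 52.7% and 7 CpG. GC boxes, some overlapping each other, numbered 4 in Itpka, 1 in Bok and 4 in Cabp7, and 35.7% of all start regions hold at least 1. None of the 3 windows held a cAMP response element (TGACGTCA, in 1.79% of all), a TATA box (TATAAA, in 13.6%) or a match to the NF-kB site consensus (in 4.51%), each searched on both strands. Cabp7 held 1 E-box (CANNTG, in 72.3%) and the other 2 held none. These matches are letters in a window and not known binding sites.

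Over the remaining members, start regions fell into a CpG-rich and a CpG-poor kind. Those of C1ql2, Dsp, Wfs1 and Fibcd1 and the first of 2 of Prox1 had 23 to 46 CpG, and the second start region of Prox1 had 14. Lct had 1 and Tdo2 had 4, the lowest of the 10 genes, and Tdo2 and the first Prox1 window each held a TATA box. No member window held a cAMP response element or the NF-kB consensus. The dentate genes therefore did not share 1 kind of start region.

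Of the 10 genes, 4 lie on chromosome 1, in the order Bok, C1ql2, Lct and Prox1. In RefSeq's gene order 62 measured genes separate Bok from C1ql2, 22 separate C1ql2 from Lct and 473 separate Lct from Prox1. Fibcd1 and Itpka share chromosome 2, with 767 measured genes between them. Tdo2 lies on chromosome 3, Wfs1 on 5, Cabp7 on 11 and Dsp on 13. Of the 20 measured genes directly beside a member, 0 passed at an adjusted p under 0.05 (limma), beside 0.0502% of all genes. At an unadjusted p under 0.05 there was 1, Snrnp48 beside Dsp, where 11.7% of all genes passed. Beside the 3 picked genes the differences were small. Rtf1 and Ltk, which flank Itpka, differed by 0.00 and 0.05. Stk25 and Thap4, which flank Bok, differed by -0.04 and 0.02. Zmat5 and Nf2, which flank Cabp7, differed by -0.01 and 0.07.

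Among the 7 genes not stated to be picked from these arrays, 0 passed at an adjusted p under 0.05 (limma with Benjamini-Hochberg adjustment over all 35556 probe sets), where 0.0816% of all probe sets did. With all 8 arrays none of the 7 had an unadjusted p under 0.05 either, where 10.8% of all probe sets passed. With arrays left out C1ql2 and Dsp did, as given below, and neither passed after adjustment. Significance Analysis of Microarrays (SAM), the test named by the study, called 0 of 7, where it called 0.149%. Of the 7 with all arrays, 3 had a higher mean under the label TNF-/- and 4 a lower one, with a median difference of -0.07, beside -0.01 over all genes.

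**Figure D1:**
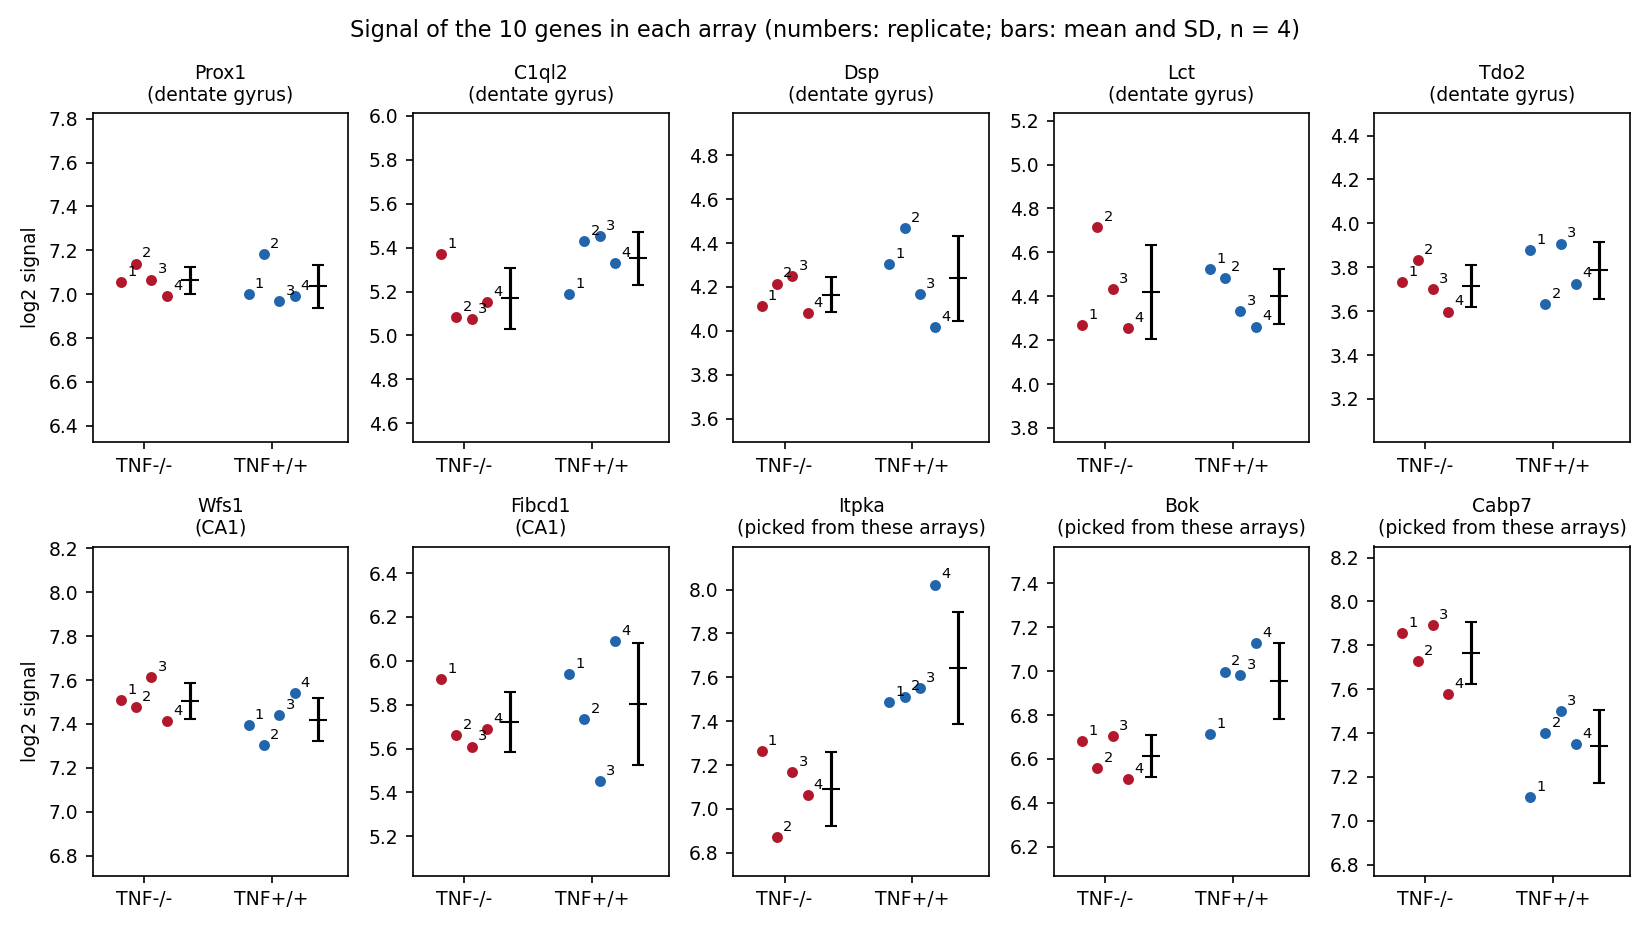
Log2 signal of each gene (vertical axes, all spanning the same width) in the 4 arrays labelled TNF-/- (red) and the 4 labelled TNF+/+ (blue). Points are arrays with their replicate number, and black bars are the group mean and SD. The groups lie apart for Itpka, Bok and Cabp7 and overlap for the other 7.

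In the dentate gyrus, Prox1, the homeobox transcription factor that maintains granule cell identity, had nearly equal group means. Its signals were 7.06, 7.14, 7.07 and 6.99 in the arrays labelled TNF-/-, against 7.002, 7.18, 6.97 and 6.99 in those labelled TNF+/+. The groups overlapped, and TNF+/+ array 2 was the highest of all 8. The difference was 0.03 ± 0.07 (SE), with a 95% interval from -0.12 to 0.18 (limma, adjusted p = 0.897). That interval was the narrowest of the 5 dentate genes. The sign was unstable: it was negative after quantile normalization (-0.02) and without TNF+/+ arrays 3 and 4 (-0.03). Without TNF+/+ array 1 it was 0.02.

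C1ql2 encodes a C1q-like protein that granule cells secrete at mossy fibre synapses. It was at 5.37, 5.08, 5.07 and 5.15 in the arrays labelled TNF-/-, against 5.19, 5.43, 5.45 and 5.33 in those labelled TNF+/+. Of the TNF-/- arrays, 3 lay below every TNF+/+ array, and TNF-/- array 1 lay among them. The difference of -0.18 ± 0.09 (SE) did not pass (limma, adjusted p = 0.501; 95% interval -0.38 to 0.02). It was the largest of the 7 in size and stayed negative in all 16 alternative settings, between -0.25 and -0.14. It was -0.25 without TNF-/- array 1 (limma, unadjusted p = 0.0147, adjusted p = 0.324) and -0.23 without TNF+/+ array 1 (unadjusted p = 0.0292, adjusted p = 0.44), but -0.14 without TNF+/+ arrays 3 and 4.

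Dsp encodes desmoplakin, a protein of cell junctions whose RNA in mouse brain marks granule cells. It was at 4.11, 4.22, 4.25 and 4.08 in the arrays labelled TNF-/-, against 4.30, 4.47, 4.17 and 4.02 in those labelled TNF+/+. The SD was 0.081 under TNF-/- and 0.192 under TNF+/+ (n = 4 each), and TNF+/+ arrays held both the highest and the lowest value. The difference was -0.07 ± 0.10 (SE; limma, adjusted p = 0.803), and its size depended on which TNF+/+ arrays were used. It was 0.002 without TNF+/+ array 2. Without TNF+/+ arrays 3 and 4 it was -0.22, with a 95% interval from -0.42 to -0.02 (limma, unadjusted p = 0.0358, adjusted p = 0.473).

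Lct encodes lactase, a gut enzyme whose RNA also marks mouse granule cells. Its signals were 4.27, 4.72, 4.43 and 4.25 in the arrays labelled TNF-/-, against 4.52, 4.48, 4.33 and 4.26 in those labelled TNF+/+. TNF-/- arrays held both ends of the range. The difference was 0.02 ± 0.11 (SE; limma, adjusted p = 0.965) and was -0.08 without TNF-/- array 2, -0.09 without TNF+/+ arrays 3 and 4 and 0.06 without TNF+/+ array 1. Tdo2 encodes tryptophan dioxygenase, which opens the kynurenine route of tryptophan breakdown and in mouse hippocampus marks mature granule cells. It was at 3.73, 3.83, 3.70 and 3.60 in the arrays labelled TNF-/-, against 3.88, 3.63, 3.91 and 3.73 in those labelled TNF+/+. The groups overlapped, and the difference was -0.07 ± 0.08 (SE; limma, adjusted p = 0.771). It was -0.04 both without TNF+/+ array 1 and without TNF+/+ arrays 3 and 4.

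These dentate genes differ in how much their probe sets can show. The mean signal of Tdo2 lay above 13.0% of all probe sets, that of Dsp above 32.4% and that of Lct above 38.1%, so a change in them could go unseen in whole brain. C1ql2 lay above 52.5% and Prox1 above 73.2%. The mean over the 5 genes was 4.82 to 5.00 per array under TNF-/- and 4.86 to 5.04 under TNF+/+, ranges that overlap in part. The group means of these were 4.91 under TNF-/- and 4.96 under TNF+/+. With all arrays 2 of the 5 genes had a higher mean under TNF-/- and 3 a lower one (median -0.07). Without TNF+/+ arrays 3 and 4, which stood apart, all 5 had a lower mean (median -0.09), none past the test.

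For CA1, Wfs1 encodes wolframin, a membrane protein of the endoplasmic reticulum that is abundant in CA1 pyramidal cells and in parts of cortex and amygdala. It was at 7.51, 7.48, 7.61 and 7.41 in the arrays labelled TNF-/-, against 7.39, 7.30, 7.44 and 7.54 in those labelled TNF+/+. The groups overlapped, and TNF+/+ array 4 exceeded 3 TNF-/- arrays. The difference was 0.08 ± 0.07 (SE; limma, adjusted p = 0.676; 95% interval -0.07 to 0.24), and it was positive in all 16 alternative settings, between 0.04 and 0.15. The highest was without TNF+/+ arrays 3 and 4 (limma, adjusted p = 0.549).

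Fibcd1 encodes a transmembrane receptor that binds acetylated sugars and whose RNA marks CA1 in mouse. It was at 5.92, 5.66, 5.61 and 5.69 in the arrays labelled TNF-/-, against 5.94, 5.73, 5.45 and 6.09 in those labelled TNF+/+. The TNF+/+ arrays held both the highest and the lowest value. The difference was -0.08 ± 0.14 (SE; limma, adjusted p = 0.843), 0.01 without TNF+/+ array 4 and -0.04 without TNF+/+ array 1. With all arrays the 2 CA1 genes differed in opposite directions, each with an interval that includes 0.

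Of the 3 picked genes, Itpka encodes the kinase that converts inositol trisphosphate to its tetrakisphosphate and bundles actin in dendritic spines. It was at 7.26, 6.87, 7.17 and 7.06 in the arrays labelled TNF-/-, against 7.49, 7.51, 7.55 and 8.02 in those labelled TNF+/+. The groups did not overlap, with a gap of 0.22 between the nearest arrays, and TNF+/+ array 4 stood well above the others of its group. Means were 7.09 ± 0.17 under TNF-/- and 7.64 ± 0.25 under TNF+/+ (SD, n = 4 each), a difference of -0.55 ± 0.14 (SE) or 1.47-fold lower. It was -0.42 without TNF+/+ array 4 and -0.41 without TNF+/+ arrays 3 and 4, and -0.60 without TNF+/+ array 1.

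Bok encodes a member of the BCL-2 family that binds inositol trisphosphate receptors. Its signals were 6.68, 6.56, 6.70 and 6.51 in the arrays labelled TNF-/-, against 6.71, 6.998, 6.98 and 7.13 in those labelled TNF+/+. The groups were parted by only 0.01, between TNF-/- array 3 and TNF+/+ array 1, the array with the cerebellar signal. Means were 6.61 ± 0.09 under TNF-/- and 6.96 ± 0.17 under TNF+/+ (SD, n = 4 each), a difference of -0.34 ± 0.09 (SE) or 1.27-fold lower. Without TNF+/+ array 1 it was -0.42, and without TNF+/+ arrays 3 and 4 it was -0.24.

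Cabp7 encodes calneuron 2, a calcium sensor with EF-hand motifs that sits on Golgi membranes. It went the other way, at 7.86, 7.73, 7.89 and 7.58 in the arrays labelled TNF-/-, against 7.11, 7.40, 7.50 and 7.35 in those labelled TNF+/+. The groups were parted by 0.08, and TNF+/+ array 1 was the lowest of all 8. Means were 7.76 ± 0.14 under TNF-/- and 7.34 ± 0.17 under TNF+/+ (SD, n = 4 each), a difference of 0.42 ± 0.10 (SE) or 1.34-fold higher. Without TNF+/+ array 1 it was 0.35, and without TNF+/+ arrays 3 and 4 it was 0.51.

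These values describe how the 3 were chosen. Groups with no overlap were found for 7.66% of the 19938 genes. Of all genes 23 had a more negative difference than Itpka and 113 a more negative one than Bok, while 113 had a more positive one than Cabp7.

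**Figure D2:**
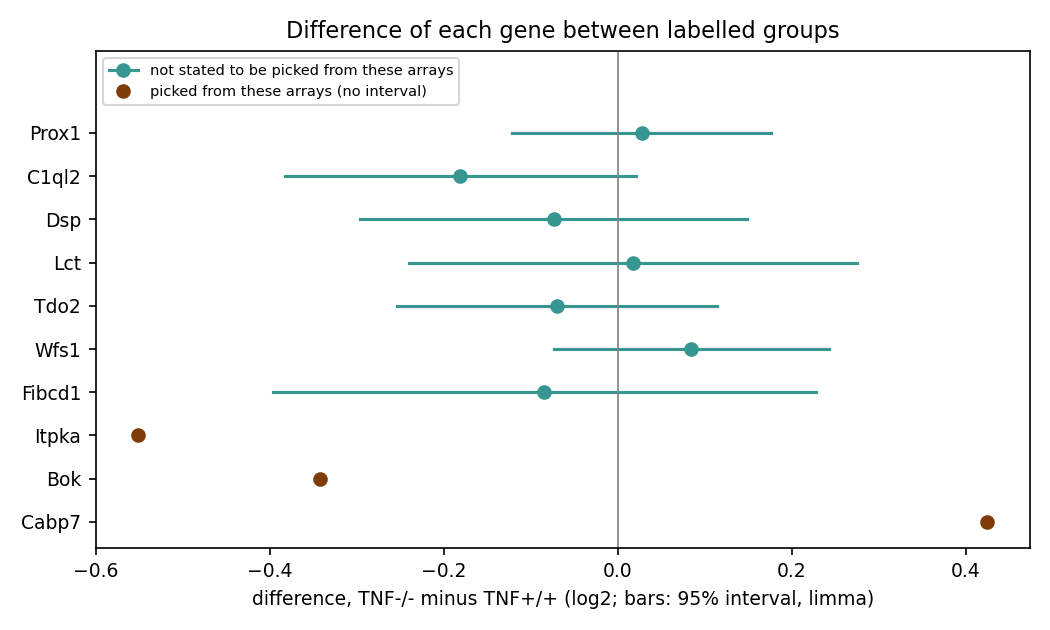
Difference between arrays labelled TNF-/- and TNF+/+ (horizontal axis, log2) for each gene. Bars are limma's 95% interval for the 7 genes not stated to be picked from these arrays, and the 3 picked from them have none. These 7 genes have intervals that include 0, while Itpka (-0.55) and Bok (-0.34) lie to the left and Cabp7 (0.42) to the right.

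Whether genes of one field moved together from brain to brain was asked without the contrast between groups, by taking each array's deviation from its own group mean. Pearson's r over the 8 arrays was computed for all 45 pairs of the 10 genes, with an exact two-sided permutation of arrays within groups (576 arrangements, Benjamini-Hochberg over the 45 pairs). No pair passed, and the smallest adjusted p was 0.586. The smallest p this exact permutation can give is 0.00174, so after adjustment over 45 pairs no pair could pass alone. Of the 10 dentate pairs 2 had an unadjusted p under 0.05. Of the 31 pairs between the dentate, CA1 and picked genes 1 did, Lct with Itpka. The picked genes were assigned no field. Neither the dentate pairs nor the CA1 pair passed this test, which cannot decide for a single pair such as that of CA1.

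Within the dentate gyrus 5 of 10 pairs were positive and 5 negative, with a median r of -0.02. Prox1, Dsp and Lct were positively related to each other. Prox1 and Dsp had r = 0.79 and rho = 0.81 (exact permutation p = 0.0486 and 0.0312, adjusted p = 0.586 and 0.703). Dsp and Lct had r = 0.65 and rho = 0.67 (exact permutation p = 0.033 and 0.0729, adjusted p = 0.586 and 0.815). Prox1 and Lct had r = 0.63 and rho = 0.67 (exact permutation p = 0.0833 and 0.099, adjusted p = 0.75 and 0.815). Without the 2 arrays farthest from the median of the first gene, r was 0.53, 0.75 and 0.31 in these pairs.

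C1ql2 did not follow them, with r = 0.07 to Prox1, -0.14 to Dsp, -0.53 to Lct and -0.19 to Tdo2 (exact permutation, adjusted p = 0.948, 0.944, 0.859 and 0.875). The matching rho values were -0.14, -0.29, -0.57 and -0.07. Tdo2 was at r = 0.41 to Lct but -0.25 to Prox1 and -0.11 to Dsp (exact permutation, adjusted p = 0.869, 0.875 and 0.944), with rho of 0.36, -0.12 and -0.10. The CA1 pair Wfs1 and Fibcd1 had r = 0.22 and rho = 0.14 (exact permutation p = 0.691 and 0.802, adjusted p = 0.875 and 0.913), and r = -0.07 without 2 arrays.

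The 3 picked genes were all positively related within groups. Bok and Cabp7 had r = 0.80 and rho = 0.62 (exact permutation p = 0.0521 and 0.16, adjusted p = 0.586 and 0.898), although their differences between groups have opposite signs. That relation rested on 2 arrays, without which r was 0.17. TNF+/+ array 1 was the lowest of its group for both genes, and without it r was 0.55. Itpka and Bok had r = 0.71 and rho = 0.76 (exact permutation p = 0.132 and 0.059, adjusted p = 0.848 and 0.815), and r = 0.46 without 2 arrays. Itpka and Cabp7 had r = 0.28 and rho = 0.38 (exact permutation p = 0.542 and 0.385, adjusted p = 0.875 and 0.913).

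Outside the picked genes, Itpka had positive r to the CA1 genes and, among the dentate genes, to C1ql2 (r = 0.26, rho = 0.33). Itpka had negative r to the other dentate genes, Prox1, Dsp, Lct and Tdo2. Its r was 0.68 to Wfs1 and 0.60 to Fibcd1 (rho 0.64 and 0.40), but -0.72 to Lct and -0.67 to Dsp (rho -0.79 and -0.50). Without 2 arrays these r values were 0.24, 0.32, -0.53 and -0.26. Of these only the pair with Lct was under 0.05 unadjusted (exact permutation p = 0.026, adjusted p = 0.586). Over all 31 pairs between the dentate, CA1 and picked genes 13 were positive and 18 negative, with a median r of -0.16. Many of these hold a picked gene, so they are not all pairs of different fields.

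**Figure D3:**
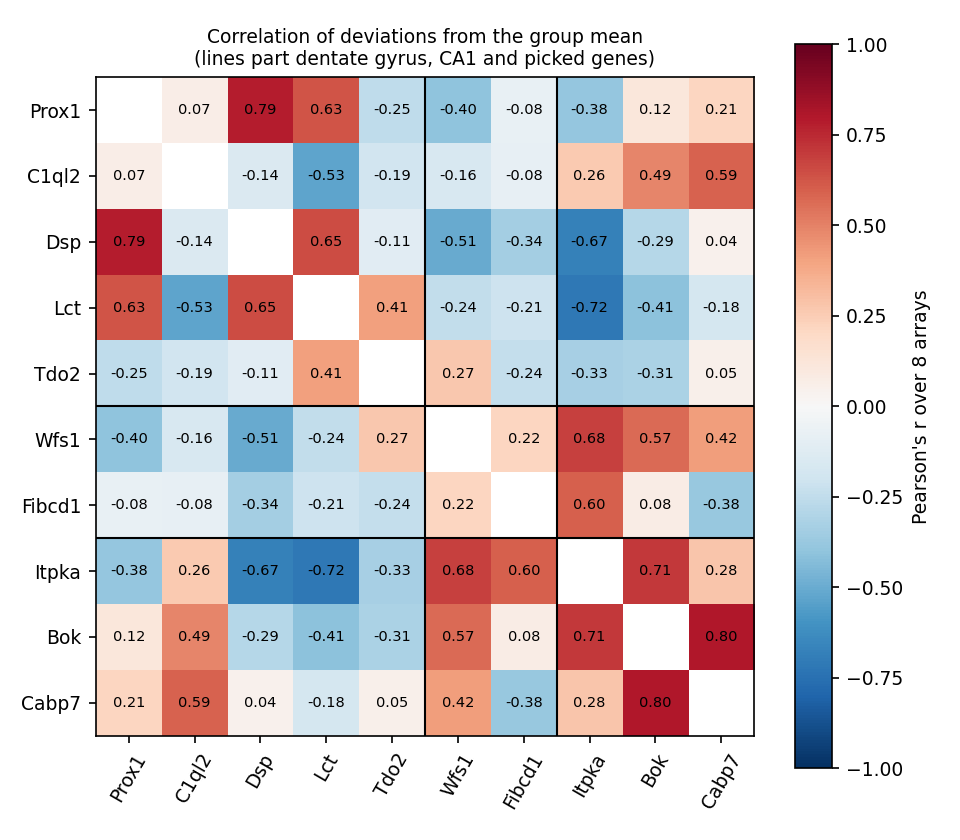
Pearson's r between genes (rows and columns) over 8 arrays, each signal taken as its deviation from its own group mean; red is positive and blue negative, and black lines part the dentate, CA1 and picked genes. Prox1, Dsp and Lct are positively related to each other (0.63 to 0.79), while C1ql2 and Tdo2 do not follow them.

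The genes most like each member in this within-group pattern were sought among 9968 or 9969 genes brighter than the median gene. Over 8 arrays and so many genes a high r is no finding, and these are descriptions. For Prox1 they were Zfp664 and Alms1 (r = 0.97 and 0.96), for C1ql2 Hdhd5 and Nynrin (0.95 and 0.94), for Dsp Clasp1 and Prkdc (0.97 each), for Lct Rps6ka3 and Hdx (0.98 and 0.95), and for Tdo2 Notch2 and Ssbp3 (0.92 each). For Wfs1 they were Aup1 and Cyhr1 (0.97 each), for Fibcd1 Brat1 and Adamts4 (0.99 and 0.95), and for Itpka Gzf1 and Ephb6 (0.996 and 0.992). For Bok they were Gstk1 and Thap12 (0.98 each), and for Cabp7 Tcn2 and Fem1a (0.97 and 0.96). No gene in either place was another member or belonged to a hippocampal list. With so few places among so many genes, that absence is no finding either. Tcn2 lies on chromosome 11 with 19 measured genes between it and Cabp7.

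Other genes of the fields were taken from lists of markers. Over the 7 lists, 71 genes were measured, and 0 passed over all probe sets (limma; smallest adjusted p 0.324; also 0 by SAM, which called 0.11% of genes), beside 0.0502% of all genes. Of the 71, 7 had an unadjusted p under 0.05, beside 11.7% of all genes. Of the 71, 39 had a higher mean under TNF-/- and 32 a lower one, with a median difference of 0.02 beside -0.01 over all genes.

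Other genes of the dentate gyrus were divided. Of 14 granule cell genes, 8 had a higher and 6 a lower mean under TNF-/-, with a median of 0.03. Calb1 on this list is also on the cerebellar list. Without TNF+/+ arrays 3 and 4 the split was 6 higher and 8 lower (median -0.03), and without TNF+/+ array 1 it was also 6 and 8 (median -0.02). Plk5, a polo-like kinase relative, was at 4.99, 5.04, 5.21 and 5.06 under TNF-/-, against 5.47, 5.26, 5.21 and 5.43 under TNF+/+. The arrays nearest each other were both numbered 3, and the difference was -0.27 ± 0.08 (SE; limma, adjusted p = 0.324). Pdyn, which encodes the opioid precursor prodynorphin of mossy fibres and of striatum, differed by 0.32 ± 0.15 (SE; limma, adjusted p = 0.49), with 6.49 in TNF-/- array 3 against 5.78 to 6.00 in the others of that group. C1ql3, the close relative of C1ql2, differed by 0.15 ± 0.07 (SE; limma, adjusted p = 0.498), the opposite sign to C1ql2.

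Of 8 genes of young granule cells, 4 were higher and 4 lower, with a median of 0.01. Neurod1 on this list is also on the cerebellar list. The list's mean was 6.04 in TNF+/+ array 1, which carried the cerebellar signal, and 5.77 to 5.90 in the other arrays. Without TNF+/+ arrays 3 and 4 it was 3 higher and 5 lower (median -0.09), without TNF+/+ array 4 it was 3 and 5 (-0.05), and without TNF+/+ array 1 it was 5 and 3 (0.04). Igfbpl1, a gene of newborn neurons, was at 3.94, 4.10, 3.89 and 4.17 under TNF-/-, against 4.33, 4.25, 4.68 and 4.21 under TNF+/+. The groups did not overlap, but the nearest arrays were close, and the gene did not pass (limma, adjusted p = 0.361). Calb2, which encodes calretinin and is shared with mossy cells, differed by 0.13 ± 0.11 (SE; limma, adjusted p = 0.684). With all arrays the other mossy cell genes had slightly lower means. Without TNF+/+ arrays 3 and 4, 2 of the 5 on the mossy cell list were higher. Csf2rb2, which encodes a cytokine receptor subunit, was at -0.07 ± 0.08 (SE; limma, adjusted p = 0.771). Of the mossy cell list, Calb2 is also on the thalamic list, Drd2 on the striatal list and Nmb on the olfactory bulb list.

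CA1 genes mostly had higher means under TNF-/-, none past the test. The list was chosen with earlier results of these data known. Of 11 measured members 10 had a higher mean under TNF-/-, with a median of 0.11, beside 47.8% higher and -0.01 over all genes. Without TNF+/+ arrays 3 and 4 it was 9 of 11 (median 0.08), and without TNF+/+ array 1 it was 10 of 11 (0.16). None passed (limma, adjusted p of 0.497 or more; 0 of 11 also at an unadjusted p under 0.05). The list's mean was 7.88 to 7.98 across arrays labelled TNF-/- and 7.75 to 7.84 across those labelled TNF+/+, without overlap. Ccn3, a secreted matrix protein gene, was at 9.97, 10.11, 10.38 and 10.54 under TNF-/-, against 9.98, 9.70, 10.02 and 10.13 under TNF+/+, and differed by 0.29 ± 0.14 (SE; limma, adjusted p = 0.497). Gpr161, which encodes a receptor of primary cilia, differed by 0.18 ± 0.09 (SE; limma, adjusted p = 0.498). Nptx1, which encodes a secreted pentraxin of excitatory synapses, differed by 0.18 ± 0.10, and only Grp, which encodes gastrin-releasing peptide, had a lower mean, at -0.09 ± 0.14. Of the CA1 genes above, Wfs1 shared this direction and Fibcd1 did not.

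Markers of other cells and regions also differed in mean between the labelled groups, some in the other direction. Whether they varied with the CA1 list from array to array was not tested. TNF+/+ array 2 had the lowest CA1 mean (7.75) and the highest upper cortical mean of its group (8.03). TNF-/- array 1 had the lowest mean of its group for both the CA1 list (7.88) and the upper cortical list (7.9995). Of 11 genes of upper cortical layers 9 were higher under TNF-/- (median 0.16; 8 and 0.09 without TNF+/+ arrays 3 and 4; 0.11 without array 4 alone), with list means of 7.9995 to 8.10 under TNF-/- and 7.87 to 8.03 under TNF+/+. The CA1 list holds Dcn, which meningeal fibroblasts make. Meningeal genes were higher in 11 of 12 (median 0.20), with means of 6.06 to 6.15 under TNF-/- and 5.80 to 6.01 under TNF+/+. Oligodendrocyte genes were lower in 10 of 11 (median -0.28; 9 and -0.17 without TNF+/+ arrays 3 and 4; 9 and -0.35 without TNF+/+ array 1), with means of 9.08 to 9.24 under TNF-/- and 9.22 to 9.49 under TNF+/+. Microglial genes were lower in 8 of 9 (median -0.13), with means of 6.16 to 6.33 under TNF-/- and 6.34 to 6.52 under TNF+/+. TNF+/+ array 4, the highest for Itpka and Bok, was also the highest for the oligodendrocyte and microglial lists. Genes common to neurons were at 10.60 to 10.64 under TNF-/- and 10.53 to 10.63 under TNF+/+. The part of these shifts in the values above was not tested.

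CA2 and CA3 genes were divided. Sostdc1 on the CA2 list is also on the choroid plexus list, and Nectin3 on the CA3 list is also on that of upper cortical layers. Of 10 CA2 genes 5 were higher and 5 lower, with a median of -0.02. Without TNF+/+ array 1 it was 4 higher and 6 lower (median -0.05), and without TNF+/+ arrays 3 and 4 it was 4 and 6 (-0.01). Rgs14, which encodes a signalling regulator that limits plasticity in CA2, was at 6.24, 6.17, 6.24 and 6.13 under TNF-/-, against 6.35, 6.38, 6.31 and 6.39 under TNF+/+. The groups did not overlap, and the difference was -0.17 ± 0.05 (SE; limma, adjusted p = 0.336). Pcp4, which encodes a calmodulin-binding peptide of CA2 and also of striatum and Purkinje cells, was at 11.70, 11.64, 11.70 and 11.76 under TNF-/-, against 11.84, 11.82, 11.85 and 11.87 under TNF+/+. It too showed no overlap, with a difference of -0.14 ± 0.05 (SE; limma, adjusted p = 0.372). Stard5, also of CA2, differed by 0.36 ± 0.15 (SE; limma, adjusted p = 0.437).

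Of 10 CA3 genes 6 were higher and 4 lower, with a median of 0.01 (7 and 3 without TNF+/+ arrays 3 and 4). Elavl2, which encodes a neuronal RNA-binding protein, differed by 0.21 ± 0.08 and Grik4, which encodes a kainate receptor subunit at mossy fibre synapses, by 0.13 ± 0.09 (SE; limma, adjusted p = 0.408 and 0.624). Of 15 genes made in several hippocampal fields 7 were higher and 8 lower, with a median of -0.01, and 5 and 10 without TNF+/+ arrays 3 and 4 (-0.05). Epha7, an ephrin receptor gene, was higher by 0.18 ± 0.08 with no overlap, and Nrgn, which encodes the calmodulin-binding protein neurogranin, was at -0.17 ± 0.08 (SE; limma, adjusted p = 0.448 and 0.497). Over the 71 genes, groups lay apart for 5, of which 1 was higher and 4 lower under TNF-/-, beside 4.16% and 3.5% of all genes in these directions.

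**Figure D4:**
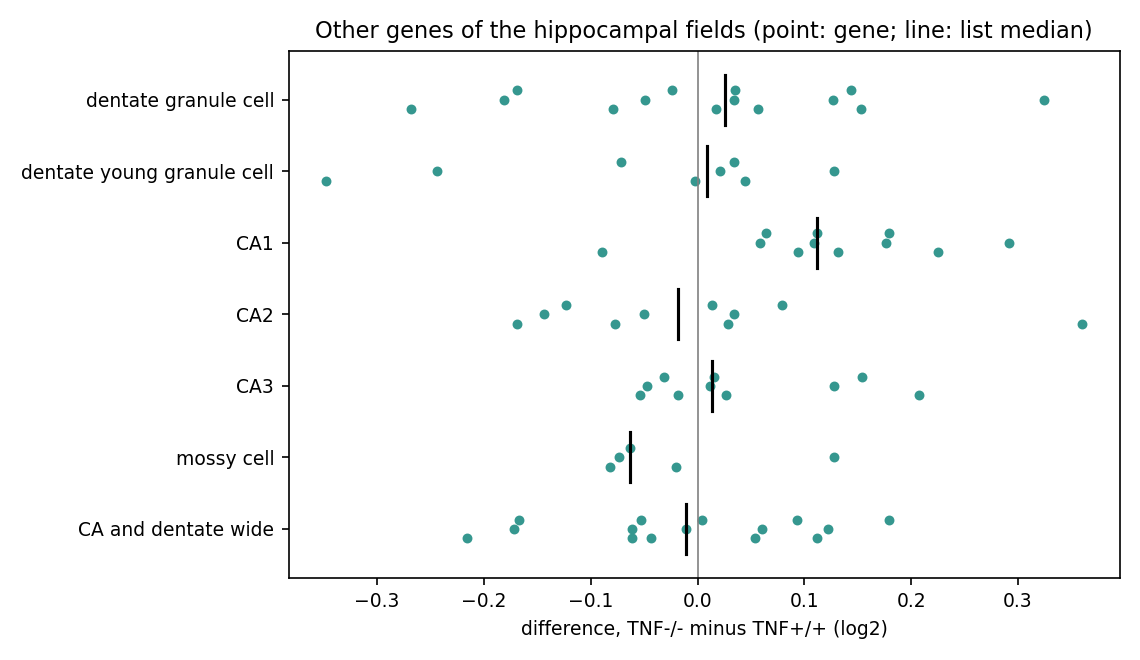
Difference between arrays labelled TNF-/- and TNF+/+ (horizontal axis, log2) for each other gene of the 7 hippocampal lists; points are genes and black lines list medians. CA1 genes lie mostly to the right (median 0.11), and the other 6 lists have medians between -0.06 and 0.03.

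**Figure D5:**
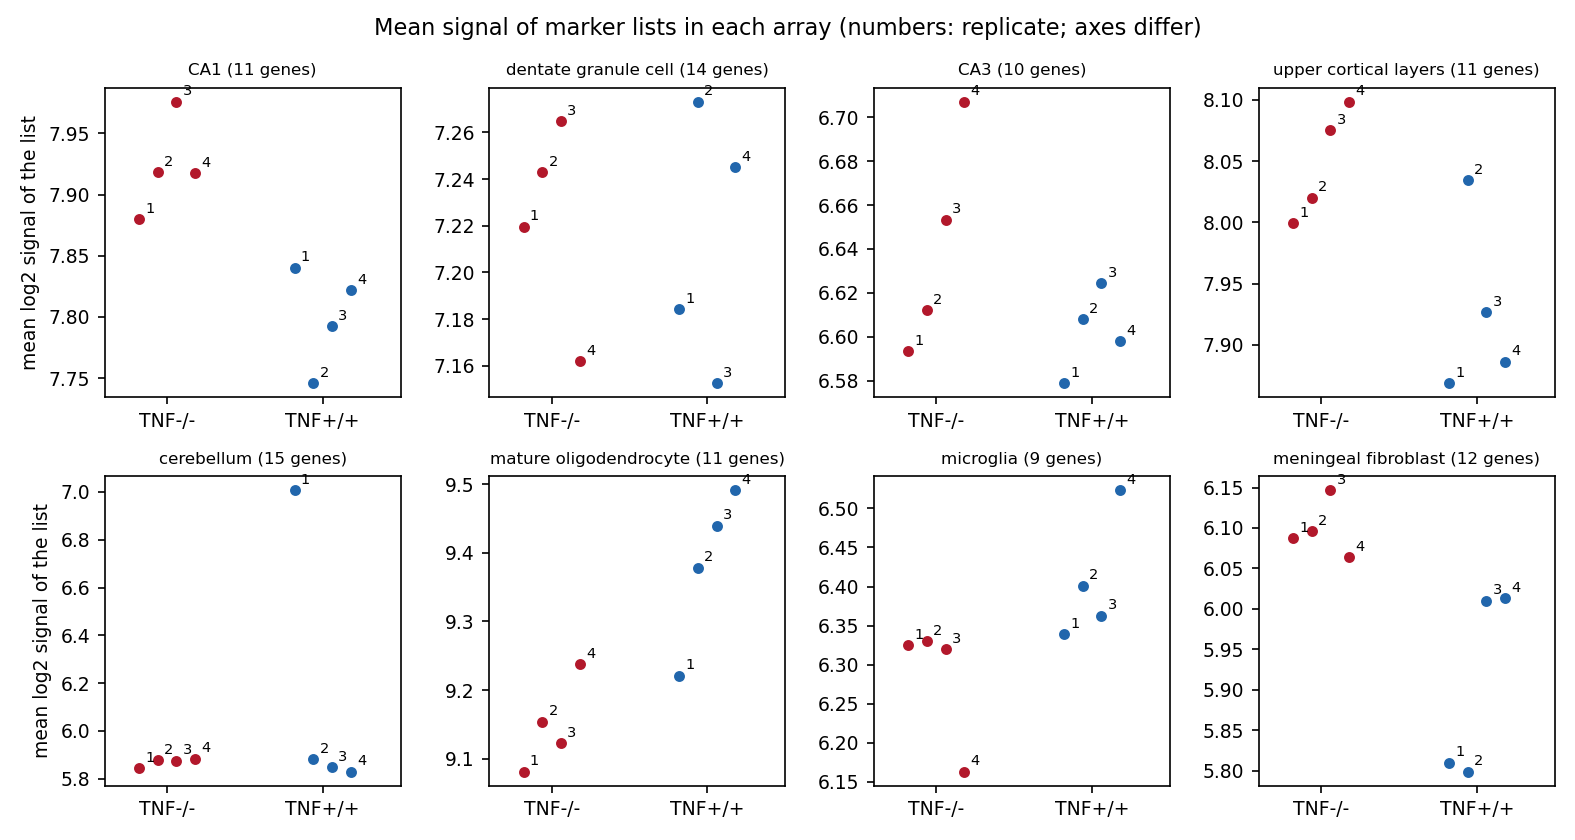
Mean log2 signal of marker lists (vertical axes differ) in each array labelled TNF-/- (red) or TNF+/+ (blue), with replicate numbers. TNF+/+ array 1 stands out for the cerebellum list (7.01), and the groups lie apart for the CA1, microglia and meningeal fibroblast lists.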

How the data were processed

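Brain RNA of 8 mice, 4 labelled TNF-/- and 4 labelled TNF+/+, was measured on 1 array each, with the group and number of each taken from its title. The deposited table holds the authors' log2 signal of 35556 probe sets, 2.83 to 14.15; the tools Partek, GCRMA and GCOS appear in the submitters' processing notes with neither role nor version, and no genome build is named in the sources used here. Values were used as deposited, without a filter, and 0 columns were left unused. Of the probe sets, 21789 carry a single gene symbol in the platform annotation, 1621 carry several, and 12146 have no entry there. A gene was represented by its probe set with the highest mean; RefSeq (GRCm38.p6), matched by gene ID for 21698 probe sets, gave names, gene order and start regions.

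The test was limma 3.58.1 under R 4.3.3, with genotype as the only term, moderated by eBayes (prior degrees of freedom 2.52), two-sided and adjusted by Benjamini-Hochberg over the whole table, and a call is an adjusted p under 0.05. A difference is the TNF-/- mean minus the TNF+/+ mean by label, and SE is limma's moderated standard error. SAM was rebuilt with all 70 assignments of arrays (s0 of 0.0357, delta 1.4, estimated false discovery rate 4.49%). Correlations between genes used deviations from group means and exact permutation within groups in Python 3.11.15. The limma, SAM and correlation steps were tested on simulated data.

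The members and gene lists were chosen with earlier results of these data known. Some genes were named only because lists share them. Named are the 10 genes, Tnf, the 2 genes of smallest p in each hippocampal list, the 2 genes most like each member, and Gabra6 and Cbln3; further genes were named after their values were seen (C1ql3, Nptx1, Grp, Stard5, Dcn and the genes beside members). Arrays of one number correlated by 0.07 to 0.11 in their deviations, and those of different numbers by -0.12 to 0.10. The highest of the latter joined TNF-/- array 3 to TNF+/+ array 4, and the rest were at 0.04 or lower. No label ties a number to a litter or day, so numbers were not taken to pair brains in the main fit.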

Additional observations from a re-analysis of the deposited data

Results flagged for a closer look

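A single array stood far from the other 3 of its group for 2 of the 60 groups of 4 examined over the 10 genes, the other named genes of the hippocampal lists and the list means, and chance gives about 3. Itpka was at 8.02 in TNF+/+ array 4, against 7.49 to 7.55 in the other 3 of that group. Prox1 was at 7.18 in TNF+/+ array 2, against 6.97 to 7.002 in the other 3.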

How the results depend on the processing

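None of the 7 members not stated to be picked from these arrays was called under any of the alternatives run. Nor was any gene of the 7 hippocampal lists. No pair of members of one field passed, in a permutation test where no pair could pass alone. With 1 array left out it has fewer arrangements still. Over all probe sets limma called 29; 63 were called when only probe sets with 1 symbol were tested, 53 by SAM, 0 in the fit with a replicate block, 0 without TNF+/+ arrays 3 and 4, and 1 to 20 with 1 array left out. C1ql2, Tdo2 and Wfs1 kept their direction in every alternative run. Prox1 turned to -0.017 after quantile normalization and -0.0292 without TNF+/+ arrays 3 and 4. Lct turned to -0.00132 with arrays centred on their medians and -0.0869 without TNF+/+ arrays 3 and 4, and ran from -0.0821 to 0.0717 with 1 array left out. With 1 array left out Dsp ran from -0.147 to 0.00242 and Fibcd1 from -0.202 to 0.0114. The cause was not tested. Of the members 3 (Dsp, Lct and Tdo2) were dimmer than the median probe set and drop out under that filter. Each member has 1 probe set, so no other could be tried. The fit with a replicate block called 0 probe sets, and so none of the 7. All arrays except TNF-/- array 3 and TNF+/+ array 4 correlated best with the array of their own number. Between alternatives, the median of the CA1 list ran from 0.08 to 0.16.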

Other observations

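Marker lists of other regions and cells in the same lysates were counted as well, with 0 genes called in each. With all 8 arrays, thalamic genes were higher under TNF-/- in 7 of 12 (median 0.08), deep cortical layer genes in 7 of 13 (0.03), striatal genes in 5 of 9 (0.02) and olfactory bulb genes in 4 of 9 (-0.00). Choroid plexus genes were higher in 8 of 9 (0.14), interneuron genes in 6 of 10 (0.09), genes common to neurons in 8 of 10 (0.03) and astrocyte genes in 5 of 10 (-0.00). Several of these counts rested on single arrays. Cerebellar genes were lower in 12 of 15 (-0.19) with all arrays, but without TNF+/+ array 1 they were higher in 8 and lower in 7 (0.03). Without that array genes common to neurons were higher in 4 of 10 (-0.01), choroid plexus genes in 5 of 9 (0.11), thalamic genes in 8 of 12 (0.14) and olfactory bulb genes in 6 of 9 (0.03). Without TNF+/+ arrays 3 and 4, thalamic genes were higher in 6 of 12 (0.03), choroid plexus genes in 9 of 9 (0.21), genes common to neurons in 8 of 10 (0.06), interneuron genes in 8 of 10 (0.10), olfactory bulb genes in 6 of 9 (0.07) and cerebellar genes in 1 of 15 (-0.48). Ttr, the transthyretin gene of choroid plexus, differed by 0.06 ± 0.08 (SE; limma, adjusted p = 0.814).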
